A study of Mus musculus with 6 samples.

Results

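The genes described here encode the proteins of the cytosolic ribosome, the particle that translates messenger RNA into protein outside mitochondria. They were read on expression arrays of MIN6 cells, an established insulin-secreting line of mouse origin, 3 arrays after electroporation with a control siRNA and 3 after an siRNA against TDP-43, at 100 pmol in both groups. One siRNA is named per group, and effects of it on other transcripts were not tested. The labels name no genetic change in either group and no time between electroporation and harvest, and they do not say whether the replicates were separate cultures, so p-values measure the spread between these arrays, which may be technical. Members were chosen by name: a symbol of Rpl or Rps followed by a number, with an a, x or l after it in some, or Rplp0, Rplp2 or Rpsa, on a probe set (a group of probes for 1 transcript) that names a single gene. The rule found 46 genes on 100 of the 45101 probe sets, and each gene was read from its brightest one. A filter on dim probe sets, which left 12619 genes of all kinds, left 43 members, 20 of the small and 23 of the large subunit. The 3 members it removed were Rpl3l, Rps16 and Rps4l, with mean signals of 13.6, 2.50 and 2.54. The single-gene probe set of Rps16 thus gave no usable value for this gene, and RefSeq lists Rps4l as a transcribed pseudogene. A further 29 symbols that match the name rule, Rpl5, Rpl10, Rpl23 and Rplp1 among them, stood only on probe sets that name several genes and have no value here.

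Each ribosome holds 1 small subunit, which reads the messenger RNA, and 1 large subunit, which joins the amino acids, and most of their proteins are present once per particle. Cells therefore keep the output of these scattered genes in balance. Much of that control acts on translation: the messenger RNAs begin with a 5' terminal oligopyrimidine (TOP) tract, a C followed by more C and T bases, through which the kinase mTORC1 and the protein LARP1 regulate them. Beta cells translate large amounts of preproinsulin and depend on this machinery. TDP-43, encoded by Tardbp, binds RNA, and has been described to bind ribosomal protein messenger RNAs and carry them along axons. The arrays measure the amount of transcript, not its translation or its place in the cell.

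The start sites show a sequence feature that the name rule did not use and that part of the family shares. RefSeq (GRCm38.p6) gave 48 annotated starts for 40 of the 46 genes. The following windows hold 15 bases before the start and the first 15 from it, for members described further on, with and without long runs, 5' to 3', with runs of 6 or more C or T bases in capitals.
Rps6, chr4:86857353-86857382, minus strand: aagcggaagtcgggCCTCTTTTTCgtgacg
Rps27, chr3:90213634-90213663, minus strand: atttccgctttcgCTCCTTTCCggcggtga
Rps27l, first start, chr9:66946071-66946100, plus strand: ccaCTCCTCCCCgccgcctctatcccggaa
Rps27l, second start, chr9:66946398-66946427, plus strand: accatgggcttcagggtcactaacgggcct
Rps25, chr9:44407699-44407728, plus strand: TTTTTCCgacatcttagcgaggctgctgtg
Rplp2, chr7:141447636-141447665, plus strand: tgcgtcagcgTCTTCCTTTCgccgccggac
Rpl4, chr9:64173372-64173401, plus strand: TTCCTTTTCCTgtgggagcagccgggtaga
Rpl14, chr9:120571502-120571531, plus strand: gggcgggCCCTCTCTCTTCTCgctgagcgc
Rpl37, chr15:5116598-5116627, plus strand: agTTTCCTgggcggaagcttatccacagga
Rplp0, chr5:115559452-115559481, plus strand: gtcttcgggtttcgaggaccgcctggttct
Rpl11, chr4:136053379-136053408, minus strand: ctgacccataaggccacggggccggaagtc
Rps3, chr7:99483695-99483724, minus strand: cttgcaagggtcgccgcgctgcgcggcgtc
Rpl37a, chr1:72711245-72711274, plus strand: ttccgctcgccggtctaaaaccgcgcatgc
Rps6, Rps27, Rplp2 and Rpl14 carry a long pyrimidine run at or across the annotated start. Rpl4, Rps25 and the first start of Rps27l have theirs upstream of it, and Rpl37 has only a short one upstream. Rplp0, Rpl11, Rps3, Rpl37a and the second start of Rps27l have none of 6 bases in this window, although a run of 17 lies within 30 bases of the start of Rpl11. Within 30 bases on each side of the start, a run of at least 8 pyrimidines on the coding strand occurred in 24 of the 48 member windows (50%), against 22.9% of all 32851 annotated starts, and the other 24 member windows had no run of that length. Annotated starts can lie some bases away from those a cell uses, and a run is a description of these letters, not a measured TOP tract.

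Promoter letters were searched in the 300 bases from 250 before the start to 50 after it, on both strands. CCGGAAG, a core read by ETS factors such as GABP, was present in 20 member windows (41.7%) against 8.86% of all. AAGATGG, a core of YY1 sites, was in 7 (14.6%) against 6.34%. TATAAA was in 5 (10.4%) against 13.6%. No match of one motif overlapped a match of another. Windows of 1 gene can overlap each other, and all of these shares move with base composition. The 250 bases before the start are shown for Rpl37 and Rps6 with CCGGAAG, or its reverse complement, in capitals, since Gabpb1, a GABP subunit, was among the genes called (described further on).
Rpl37, chr15:5116363-5116612, plus strand: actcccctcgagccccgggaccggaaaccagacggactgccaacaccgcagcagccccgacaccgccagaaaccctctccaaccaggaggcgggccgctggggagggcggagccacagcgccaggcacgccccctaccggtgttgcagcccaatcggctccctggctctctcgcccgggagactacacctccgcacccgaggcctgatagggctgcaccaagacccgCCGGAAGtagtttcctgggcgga
Rps6, chr4:86857368-86857617, minus strand: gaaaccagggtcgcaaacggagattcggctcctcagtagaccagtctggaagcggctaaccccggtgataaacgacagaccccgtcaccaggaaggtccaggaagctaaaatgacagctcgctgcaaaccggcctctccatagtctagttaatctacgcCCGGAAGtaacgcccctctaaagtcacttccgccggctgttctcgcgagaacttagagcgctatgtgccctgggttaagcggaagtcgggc
Both hold 1 match of CCGGAAG, and that of Rpl37 lies close to the start. The same stretch before the first start of Rps27l and before that of Rplp0, not printed, holds none. These examples came from near the high and low ends of the differences, and 20 of 40 member genes held a match in the searched window. Whether a match goes with a gene's difference between groups was not tested.

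Median signals lay between 72.3 and 79.97 over the 6 arrays, which the authors had scaled to a common trimmed mean. Precision is limited by there being 3 arrays a group. On its brightest probe set Tardbp read 3748, 3940 and 3699 in control arrays and 2257, 2249 and 1836 after TDP-43 siRNA, which is 55.6% of control (log2 difference -0.85, limma adjusted p = 0.00187). Its 4 dimmer probe sets were at -0.86, -1.41, -1.27 and -1.24, all past the threshold, and their mean with the brightest was at -1.13, so that the size of the knockdown depends on the probe set. The 6 beta cell markers with a single-gene probe set, among them Ins2, Pdx1 and Slc2a2, had a summed signal of 52015 to 53243 in control against 51660 to 56831 in TDP-43 siRNA arrays. G6pc2 was the brightest of them, with a mean signal of 20905, and Ins2 had 7670. Markers of fibroblasts, endothelium and immune cells summed to 211 to 332 and 214 to 282 over 6 genes, with Ptprc and Pecam1 at 8.42 and 12.3. Of 6 acinar and duct markers 5 were read and summed to 5583 to 6348 and 5031 to 6121, nearly all of it Krt7, with Cpa1 at 3.20. Of 6 markers of other islet cells 5 were read, at 7484 to 10808 and 7959 to 8897, nearly all of it Gcg, with a mean signal of 8715. No marker passed the threshold. Every array started from the same mass of total RNA, so that fewer cells and less RNA per cell cannot be told apart, and a change shared by all transcripts would not appear.

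After TDP-43 siRNA, no measured cytosolic ribosomal protein transcript passed the test for a change in level. Of the 43 measured members 0 rose and 0 fell at a limma adjusted p of 0.05 over all 12619 genes, where 0.745% of all genes were called (0.166% higher and 0.578% lower). At so low a background, a count of 0 among 43 genes is near what the share over all genes gives. At an unadjusted limma p below 0.05 there was 1 member, Rpl37, against 12.6% of all genes. The median log2 difference, TDP-43 siRNA minus control siRNA, was 0.0092 over members and 0.017 over all genes, and 16 of 43 members lay below 0, where 45% of all genes did. Differences ran from -0.10 for Rps25 to 0.19 for Rpl37, and the median absolute difference was 0.030 against 0.10 over all genes. In no member did the 3 TDP-43 siRNA arrays lie on one side of all 3 control arrays, a separation that 18.3% of all genes showed (9.98% with TDP-43 siRNA higher).

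The intervals give the size of change that these arrays could have missed. The standard error of a member's log2 difference had a median of 0.053, against 0.10 for all genes. The 95% confidence interval lay within 0.2 on either side of 0 for 35 members, and for 11.6% of all genes. For the 34 members with a mean signal above 9000, every interval lay between -0.19 and 0.20. The other 9 mostly had wider ones, from -0.54 to 0.51 at the extremes, and of these Rpl27a alone lay within 0.2. The median standard error was 0.052 over the 34 bright members and 0.10 over the other 9, so that the narrow intervals go with brightness. Signals of Rps29 were the highest of any probe set on all 6 arrays, at 23867, 24659 and 25970 in control against 23787, 25140 and 26055 in TDP-43 siRNA arrays. How closely signal still follows the amount of RNA at such brightness was not tested.

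**Figure D1:**
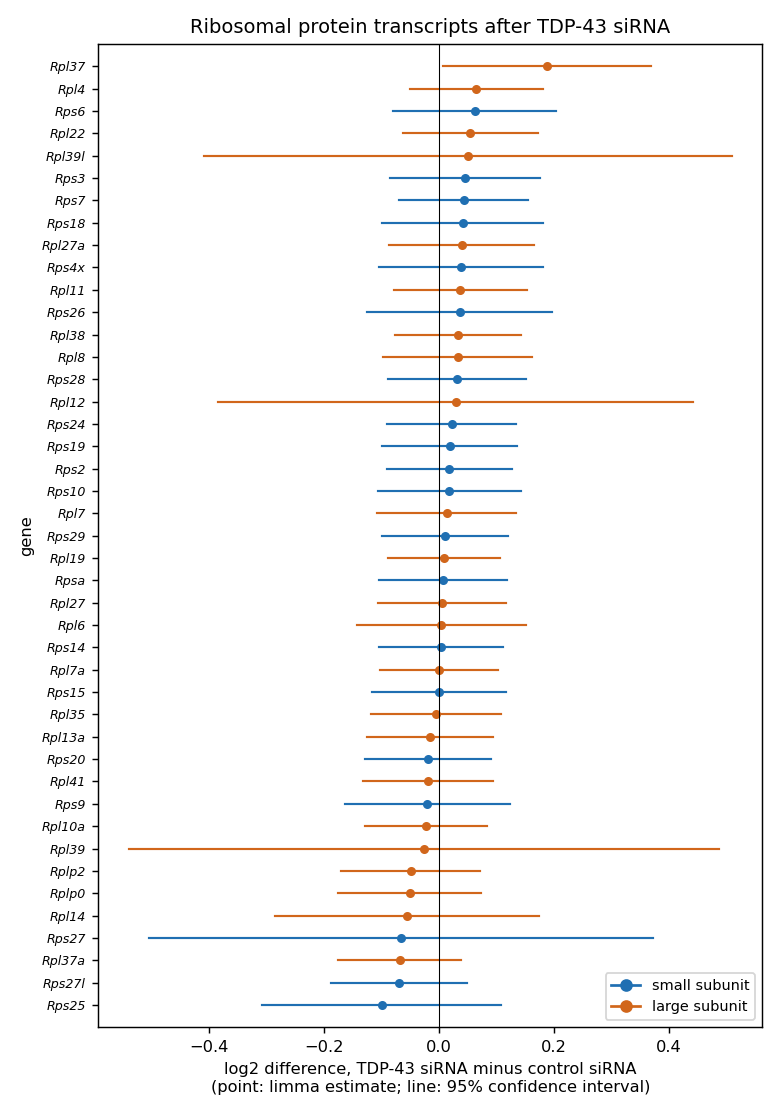
Log2 difference of TDP-43 siRNA minus control siRNA (x axis) for the 43 measured ribosomal protein genes (y axis, ordered by difference), with points for the limma estimate, lines for its 95% confidence interval and colours for the subunit. All intervals but that of Rpl37 include 0, and that gene has an adjusted p of 0.377 by limma; wide intervals belong to dim probe sets such as those of Rpl39, Rpl39l, Rps27 and Rpl12.

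**Figure D2:**
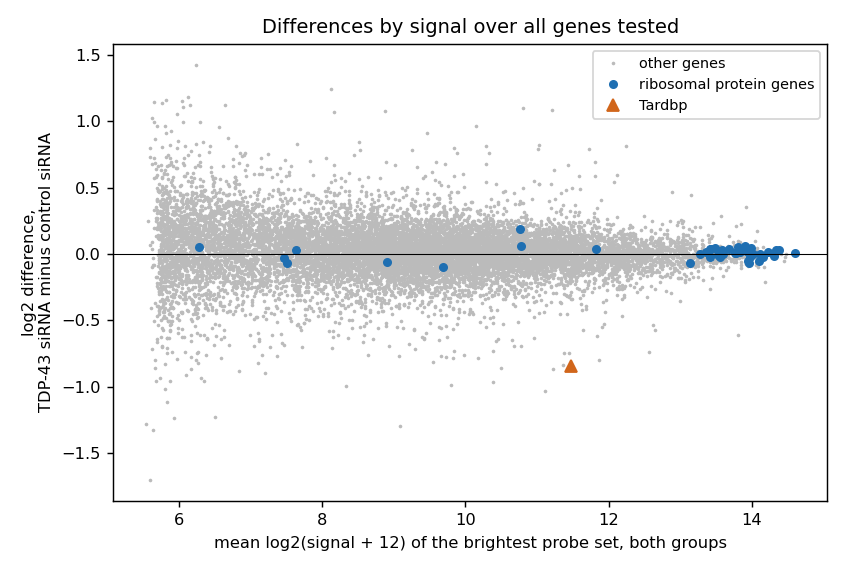
Log2 difference (y axis) against the mean log2(signal + 12) over both groups (x axis) for 12619 genes, with ribosomal protein genes in blue, other genes in grey and Tardbp as an orange triangle. Most members sit at the bright end, and the 34 with a mean signal above 9000 lie between -0.070 and 0.064.

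Members moved together between arrays, and not along the groups. Over the 34 bright members, the median deviation from each gene's own mean over the 6 arrays was -0.038, -0.037 and 0.070 in control replicates 1, 2 and 3, and -0.064, 0.029 and 0.044 in TDP-43 siRNA replicates 1, 2 and 3 (log2). Control replicate 3 and TDP-43 siRNA replicates 2 and 3 were thus high, and the other arrays low. Above their own mean were 32, 32 and 29 of the 34 in the high arrays, in that order, against 6, 2 and 1 in control replicates 1 and 2 and TDP-43 siRNA replicate 1. The median deviation over all genes, most of them dimmer, lay between -0.014 and 0.018. Tpt1, bright and outside the family, showed the same pattern, at 19237, 19503 and 20854 in control against 18651, 20392 and 20445 in TDP-43 siRNA arrays. Eef1b2, also bright, did not, at 10218, 11693 and 11098 against 11726, 10396 and 10578. Whether the pattern is particular to the family was not tested. With all arrays brought to one distribution (quantile normalization) the bright members' medians shrank to between -0.033 and 0.021. Over all 43 members, the median difference between groups was 0.017 with that normalization and 0.0092 without. The distance between the lowest and the highest array median was larger than the group difference of any of the 34 bright members. The number of members below 0 was 8 without control replicate 3, 9 without TDP-43 siRNA replicate 1, 25 without control replicate 2 and 26 without control replicate 1, so that the direction of the family as a whole rests on single arrays.

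**Figure D3:**
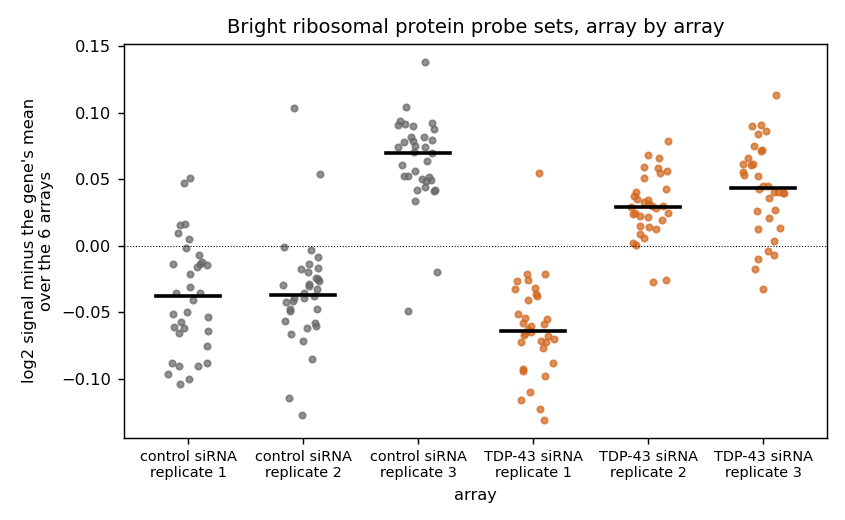
Deviation of log2 signal from the gene's mean over 6 arrays (y axis) for the 34 ribosomal protein genes with a mean signal above 9000, one point per gene in each array (x axis), grey for control siRNA, orange for TDP-43 siRNA and a bar for the median. Medians run from -0.064 to 0.070, and the high arrays belong to both groups.

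Among the 20 small subunit members, 6 lay below 0 and the median log2 difference was 0.018. Rps25, a protein of the subunit head that some viral RNAs need for initiation, was the lowest, with signals of 934, 844 and 754 in control against 792, 815 and 745 in TDP-43 siRNA arrays. These ranges overlapped, and the difference of -0.10 (SE 0.09, n = 3 per group, limma adjusted p = 0.717) was within the spread between arrays. Rps6, the substrate that gives the S6 kinases their name, read 1642, 1749 and 1704 in control and 1813, 1723 and 1782 after TDP-43 siRNA, a log2 difference of 0.06 (SE 0.06). One TDP-43 siRNA array lay inside the control range. Rps3, which lines the entry of the messenger RNA channel, read 10929, 10771 and 12096 against 11144, 11543 and 12163 (0.05, SE 0.06). In both groups its highest signal was in replicate 3. Rps26, at the channel's exit, read 10919, 10111 and 11759 in control against 10187, 11664 and 11760 in TDP-43 siRNA arrays (0.04, SE 0.07), and followed the array pattern of the family. Rpsa, also known as the laminin receptor, differed by 0.0064 (SE 0.05), with a mean signal of 11846 ± 425 in control against 11900 ± 450 in TDP-43 siRNA arrays (SD, n = 3 each). Of the remaining members, Rps15 lay closest to 0, and Rps7 and Rps18 stood highest, each at 0.04.

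Among the 23 large subunit members, 10 lay below 0 and the median was 0.0046. Rpl37, a small zinc-binding protein of the large subunit, had the highest difference of all members. It read 1565, 1575 and 1705 in control replicates 1, 2 and 3 against 1667, 1994 and 1871 in the TDP-43 siRNA replicates. The lowest TDP-43 siRNA array lay below the highest control array. The log2 difference of 0.19 (SE 0.08) had a 95% interval of 0.0066 to 0.37 and did not pass (limma adjusted p = 0.377). It came from the 1 single-gene probe set of the gene, 1438291_x_at, whose name marks probes that can read other transcripts. This limit is not particular to Rpl37. Of the probe sets that represent the 43 members, 14 carry an x and 2 an s, those of Rps29, Rps27l and Rpl37a among them. How much of their signal comes from other transcripts was not tested. Rpl4, a protein of the peptide exit tunnel, read 14257, 14813 and 15699 in control against 14902, 15836 and 16060 in TDP-43 siRNA arrays (0.06, SE 0.05). Rpl22 stood at 0.05 (SE 0.05), with 13357, 14188 and 14771 against 14044, 14649 and 15224. In both genes the groups overlapped. Rpl37a, another zinc-binding protein, was lowest of the bright large subunit members at -0.07 (SE 0.05), with 16437, 15724 and 16749 against 14908, 16174 and 15554. Rpl14 read 486, 461 and 478 against 500, 477 and 398, and its difference of -0.06 (SE 0.10) came from TDP-43 siRNA replicate 3, without which it was 0.04.

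Rpl11 forms, with Rpl5 and 5S ribosomal RNA, the particle that binds and inhibits the p53 ligase Mdm2 when ribosome assembly stalls. It read 10208, 11268 and 10708 in control against 11273, 10663 and 11055 in TDP-43 siRNA arrays, a log2 difference of 0.04 (SE 0.05). Its highest control signal was in replicate 2, and the groups overlapped. The stalk proteins Rplp0 and Rplp2 recruit the elongation factors to the large subunit. Rplp0 read 15752, 15510 and 16954 against 14611, 16343 and 15580 (-0.05, SE 0.06), and Rplp2 read 17387, 17510 and 18711 against 16123, 17663 and 18039 (-0.05, SE 0.05). Both were lowest in TDP-43 siRNA replicate 1 and highest in control replicate 3.

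Some ribosomal proteins have a second, related gene, and neither copy of the pairs measured here passed the threshold. Rps27l, a target of p53 and close relative of Rps27, read 9328, 9672 and 8698 in control against 8591, 8833 and 8941 in TDP-43 siRNA arrays. Its lowest control array, replicate 3, lay within the range of the TDP-43 siRNA arrays, and the log2 difference was -0.07 (SE 0.05, limma adjusted p = 0.646). Control replicate 3, in which 32 of the 34 bright members lay above their own mean, gave the lowest control signal of Rps27l. Rps27 itself was dim and variable on its single-gene probe set, at 171, 139 and 223 against 141, 154 and 210 (-0.07, SE 0.20). Rpl39, which narrows the exit tunnel, read 130, 182 and 195 against 236, 124 and 148 (-0.03, SE 0.23), and its testis-enriched relative Rpl39l 74.9, 66.4 and 53.2 against 72.7, 65.3 and 63.3 (0.05, SE 0.21). For Rps27, Rpl39 and Rpl39l the intervals reach 0.37 or further in both directions, so that a change of that size was not detectable here. Rpl22l1, the relative of Rpl22 that the name rule leaves out, stood at -0.15 (SE 0.07, limma adjusted p = 0.413), with 8015, 7608 and 7006 against 6790, 7283 and 6366.

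Probe sets of the same gene mostly gave the same answer. The filter left 90 single-gene probe sets for the 43 members, with 2 to 6 for each of 20 genes. None passed (limma, adjusted over 23433 probe sets, of which 0.649% were called), 33 lay below 0 (47.1% of all probe sets), 62 had an interval within 0.2 of 0 (8.18%), and 2 had an unadjusted p below 0.05 (11.4%), Rpl37 and the second probe set of Rps7. The 68 with a mean signal above 5000 ranged from -0.10 to 0.12. All 3 probe sets of Rps27l lay below 0, at -0.07, -0.09 and -0.10, and all 3 of Rpl37a at -0.07, -0.04 and -0.10. The groups did not overlap on 4 probe sets (17.3% of all probe sets, 9.2% higher), all higher after TDP-43 siRNA and none of them the brightest of its gene. On the second probe set of Rps7, 1435593_x_at, control arrays read 8223, 7991 and 8301 and TDP-43 siRNA arrays 8686, 8700 and 9270 (0.12, SE 0.05, limma adjusted p = 0.397). On that of Rps3, 1455600_at, they read 612, 619 and 648 against 709, 687 and 715 (0.16, SE 0.08, limma adjusted p = 0.471). The dim probe sets 1453466_at of Rps6 and 1436500_at of Rps24 stood at 0.37 (SE 0.22) and 0.54 (SE 0.27), with signals of 65.1 or less on every array. Dim probe sets spread widely in both directions: 1436384_at of Rps10 was at -0.34 (SE 0.33) while its 5 bright ones lay between -0.02 and 0.05. Probe sets 1448398_s_at of Rpl22 (0.37, SE 0.17) and 1453118_s_at (0.05) also differed in size, the first reading 1316, 1351 and 2129 in control against 1873, 1839 and 2382 in TDP-43 siRNA arrays. Which transcript each of these probe sets reads was not tested.

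**Figure D4:**
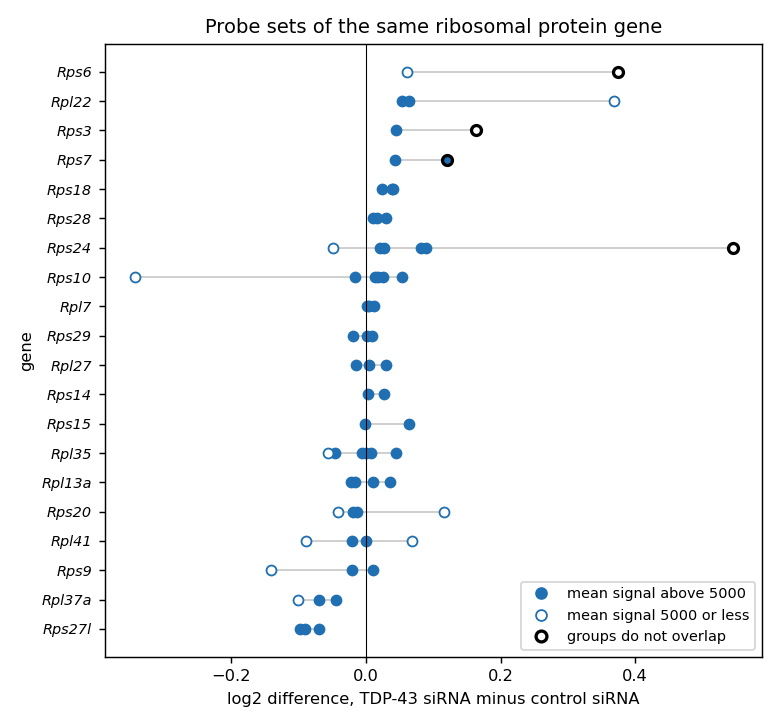
Log2 difference (x axis) of every probe set left by the filter for the 20 ribosomal protein genes with more than 1 (y axis), filled where the mean signal exceeds 5000, open where it does not, and ringed in black where the groups do not overlap. Filled points lie between -0.10 and 0.12. The far points at -0.34 for Rps10, 0.37 for Rps6 and 0.54 for Rps24 are dim probe sets, and that at 0.37 for Rpl22 has a mean signal of 1815.

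The genes around the family were read from lists, with the same fit and counts. Ribosome biogenesis factors, which make ribosomal RNA and assemble the subunits, had 56 of 56 measured and 0 past the threshold in either direction, with a median log2 difference of 0.022 and 24 below 0. The smallest p values were those of Npm1 (nucleophosmin, 0.13), Nhp2 (0.18), Polr1a (the largest subunit of RNA polymerase I, -0.39) and Utp18 (0.14). Initiation factors had 0 of 32 past the threshold, a median of 0.011 and 14 below 0. The RNA helicase Eif4a1 stood at -0.20 (SE 0.05, limma adjusted p = 0.120), with 11014, 11047 and 10721 in control against 9297, 10035 and 9239 in TDP-43 siRNA arrays. Eif1ad was at -0.24, and the scaffold subunits Eif3b and Eif3a were at -0.14 and -0.10. The groups did not overlap in any of these 4, which were named for their small p. Over the list they did not overlap in 9 of 32 genes, 7 lower and 2 higher (Eif1b at 0.12 and Eif2a at 0.09). The share over all genes was 18.3% in either direction, of which those higher were 9.98% of all genes. A list named for elongation factors and other TOP transcripts had 0 of 12 past the threshold and a median of 0.010. Whether each listed gene has a TOP tract was not examined. Eef1e1 was at 0.14, Eef2 at 0.09, Pabpc1 at 0.05 and Eef1a2 at -0.09. Fau, a ribosomal protein of the small subunit made as a fusion, was at 0.05, and Rpl7l1 at 0.02.

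Dedicated chaperones hold single ribosomal proteins until assembly, and 1 of 8 fell while 0 rose. Over all genes, 0.578% were called lower and 0.166% higher. Bccip, known as a BRCA2 partner and as the chaperone of Rpl23, read 3255, 3254 and 2916 in control against 1637, 1556 and 1403 in TDP-43 siRNA arrays (-1.03, SE 0.08, limma adjusted p = 0.00107). It also passed with any 1 of the 6 arrays left out. Its client Rpl23 stood only on probe sets of several genes and has no value. Pdcd2l was at 0.21, Pdcd2, a chaperone of Rps2, at 0.09, and Heatr3, which acts with Rpl5 and Rpl11, at 0.08, none past the threshold. Their measured clients Rps2 and Rpl11 were at 0.02 and 0.04. Other chaperones on the list, such as Tsr2 and Grwd1, did not pass either, and the median of the list was 0.0043.

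Regulators of TOP transcripts, of mTORC1 and of ribosomal protein promoters had 1 of 20 higher and 1 lower, with a median of -0.035. Over all genes, 0.166% were called higher and 0.578% lower. Larp1 was at 0.09 and Mtor at -0.06, neither past the threshold. Max, the partner through which Myc binds DNA, fell from 1075, 1037 and 1202 to 595, 622 and 703 (-0.78, SE 0.09, limma adjusted p = 0.00442). Gabpb1 rose from 458, 535 and 511 to 890, 769 and 736 on its brightest probe set (0.66, SE 0.10, limma adjusted p = 0.0176), which passed in 3 of 6 cases with 1 array omitted, but its second probe set, 1436232_a_at, was at -0.09, with 231, 224 and 215 against 191, 227 and 211. With the mean of both, Gabpb1 was at 0.29 and did not pass (limma adjusted p = 0.180). Eif4ebp1, a repressor of initiation that mTORC1 inactivates, was at 0.32 (SE 0.06, limma adjusted p = 0.0582), with 2783, 2577 and 2886 against 3413, 3357 and 3508. Sp1 was at -0.24. Of 8 p53 pathway genes 1 fell, against 0.578% of all genes, and 0 rose, against 0.166%. The 1 that fell was Zmat3, an RNA-binding p53 target, at -0.62 (SE 0.10, limma adjusted p = 0.0196), which passed for 2 of the 6 arrays that could be omitted. It did not pass without the filter (limma adjusted p = 0.0533). The list had a median of 0.018 and 4 of 8 below 0, with Ccng1 at 0.16, Sesn2 at 0.15, Bbc3 at 0.20, Mdm4 at 0.04, Cdkn1a at -0.0034, Mdm2 at -0.08 and Sesn1 at -0.15.

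Mitochondrial ribosomal proteins, which build the separate ribosome of mitochondria, had 1 of 76 lower, against 0.578% of all genes, and 0 higher. Their median log2 difference was -0.031, and 50 lay below 0 (65.8%), where 45% of all genes did. Mrps9, of the small mitochondrial subunit, fell from 808, 701 and 741 to 511, 543 and 451 (-0.57, SE 0.10, limma adjusted p = 0.0308). Omitting arrays in turn, it passed in 1 of 6 cases, and 1 of its other 3 probe sets was at -0.55, 1 at -0.36 and the dimmest at 0.12. With the mean of its probe sets Mrps9 was at -0.34 (limma adjusted p = 0.262), and it passed in 5 of 11 other settings. Mrps14 was at -0.32 (limma adjusted p = 0.0541), Mrpl21 at -0.29 and Mrpl27 at -0.20. In each of these 3 genes, named for their small p, the groups did not overlap, as in 8 of the 76 genes, all 8 lower. Over all genes 18.3% did not overlap in either direction, of which those higher were 9.98% of all genes. The difference between mitochondrial and cytosolic members was not tested.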

How the data were processed

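Per the labels' protocols, a 3' in vitro transcription kit turned 100 ng of total RNA from each sample into biotinylated cRNA. The authors deposited 1 linear MAS5 signal intensity per probe set and array, per the submitters' processing notes; version and detection calls are not given in the sources used here. Trimmed means (2% off each end) were 500.0 on every array. Gene names came from GEO's platform annotation (34945 with 1 gene, 932 with several, 9160 with none, 64 controls), with 34741 updated through RefSeq (GRCm38.p6).

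The 40% dimmest probe sets were left out, 12 was added before log2, and each gene was represented by its brightest single-gene probe set. The comparison used limma 3.58.1 (R 4.3.3) (eBayes with an intensity trend, two-sided, Benjamini-Hochberg over all genes, threshold 0.05), and the steps were tested on simulated data. Figures used matplotlib 3.10.9. Members and lists were chosen with earlier results of these data known. Named members were those past the threshold, the 6 highest and 6 lowest, stalk, 5S particle, chaperone client and paralog genes, and Rps6; of other lists, those past the threshold and the 4 with the smallest p; other names were chosen after their values were seen. Alternatives were other pseudocounts (1 and 42), no filter or 60%, quantile normalization, median centring, no intensity trend, mean of probe sets, plain probe sets only, the replicate number as a block, each array left out, and, added after seeing the data, both arrays numbered 3 left out.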

Additional observations from a re-analysis of the deposited data

How the results depend on the processing

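In every alternative run, 0 ribosomal protein genes passed the threshold (lowest limma adjusted p 0.224 to 0.683 over the fits that left out 1 array, and 0.309 to 0.552 over the others). Their median log2 difference ranged from -0.0092 to 0.043 with 1 array left out and from 0.0046 to 0.025 otherwise. Members below 0 numbered 8 to 26 with 1 array left out, and 10 of 21 on plain probe sets only, where fewer genes were tested. Over all genes the count of calls was 94, but 51 without the filter, 12 without the intensity trend, 61 with the mean of probe sets, 31 and 253 without control replicates 1 and 3, and 214 without both arrays numbered 3; it was 44 without control replicate 2, and 47, 44 and 56 when TDP-43 siRNA replicate 1, 2 or 3 was omitted. Tardbp did not pass without the intensity trend (-0.85, limma adjusted p = 0.0609), nor did Max (0.0609), Gabpb1 (0.0948), Zmat3 (0.115) or Mrps9 (0.120). Tardbp ranged from -0.90 to -0.75 with 1 array left out, and was at -1.13 with the mean of probe sets and -1.27 on plain probe sets. Without the filter Gabpb1 (0.0519), Zmat3 (0.0533) and Mrps9 (0.0715) did not pass, nor did Mrps9 with median centring (0.0545), the mean of probe sets (0.262) or plain probe sets (0.290), nor Gabpb1 with the mean of probe sets (0.180), nor Mrps9 (0.0597) and Zmat3 (0.0601) without both arrays numbered 3 (all limma adjusted p).

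Signs turned for genes near 0, none of which passed. With 1 array left out, Rpl14 ranged from -0.12 to 0.04, Rpl39 from -0.28 to 0.16, Rpl39l from -0.064 to 0.14, Rps26 from -0.019 to 0.10, Rps27 from -0.23 to 0.10 and Rpsa from -0.014 to 0.038. Without both arrays numbered 3, Rpl14 was at 0.04, Rpl39 at 0.15 and Rpl39l at -0.029. The cause was not tested. Replicate numbers were not taken to pair the arrays: for numbers 1, 2 and 3 the correlation of their deviations from group means was -0.123, -0.138 and 0.239, and only those numbered 3 correlated best with their own number. With the replicate block 0 members passed, and 123 of all genes did. Low signal limits Rps27, Rpl39, Rpl39l and Rpl12 most.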
